A study of Homo sapiens with 6 samples.

Results

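The 10 genes described here encode carriers that move amino acids across the plasma membrane: SLC7A5, SLC7A1, SLC7A2, SLC7A6, SLC1A4, SLC1A5, SLC38A1, SLC38A2, SLC43A1 and SLC6A9. They were taken by symbol from a table of 33007 genes, and each symbol was found in 1 row. The cystine transporter gene SLC7A11 was left out of the group. RNA-seq was performed on LM3 cells, an established human hepatocellular carcinoma (HCC) line, to compare stable ZNF706 knockdown with vector control. The control group held 3 samples carrying the vector, and the knockdown group held 3 samples carrying a short hairpin RNA against ZNF706 from the pLKO.1 lentiviral vector. Transduced cells were selected with puromycin, the labels give the genotype of the cells as WT, and the sources used here do not state whether the stable line was a pool or 1 clone. Nothing in the labels says that samples of a group came from separate cultures, so the p-values measure the spread between these samples, which may be technical.

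Amino acid carriers work by different means. Exchangers of the SLC7 family take in 1 amino acid for another that leaves, and SLC7A5 (LAT1, large neutral amino acids) and SLC7A6 (y+LAT2) reach the cell surface as dimers with the heavy chain SLC3A2. SLC7A1 and SLC7A2 (CAT1 and CAT2) carry arginine and lysine without that chain. SLC38A1 and SLC38A2 (SNAT1 and SNAT2) use the sodium gradient to load the cell with glutamine, alanine and other small neutral amino acids, SLC1A5 (ASCT2) and SLC1A4 (ASCT1) exchange small neutral amino acids in a sodium-dependent way, SLC6A9 (GlyT1) imports glycine with sodium and chloride, and SLC43A1 (LAT3) carries large neutral amino acids by facilitated diffusion. SLC38A2 is known as a gene that cells induce when amino acids run short, through the transcription factor ATF4.

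The members whose level fell on knockdown, SLC38A2, SLC1A5 and SLC38A1 (values below), are shown first by their promoter. Each sequence is the RefSeq window on GRCh38.p14 nearest to the deposited gene start, from 250 bases before to 50 bases after the RefSeq start site, written 5' to 3' on the gene's strand in lower case. The windows lie at chr12:46372724-46373023 (minus strand) for SLC38A2, chr19:46788545-46788844 (minus strand) for SLC1A5 and chr12:46267938-46268237 (minus strand) for SLC38A1, whose RefSeq start site is 1964 bases from the deposited gene start.
SLC38A2: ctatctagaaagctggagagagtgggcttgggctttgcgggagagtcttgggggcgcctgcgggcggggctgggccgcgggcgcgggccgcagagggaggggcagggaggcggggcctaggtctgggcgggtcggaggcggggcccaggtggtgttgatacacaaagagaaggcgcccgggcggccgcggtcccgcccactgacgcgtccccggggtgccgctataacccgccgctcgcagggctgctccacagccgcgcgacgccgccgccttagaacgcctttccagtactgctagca
SLC1A5: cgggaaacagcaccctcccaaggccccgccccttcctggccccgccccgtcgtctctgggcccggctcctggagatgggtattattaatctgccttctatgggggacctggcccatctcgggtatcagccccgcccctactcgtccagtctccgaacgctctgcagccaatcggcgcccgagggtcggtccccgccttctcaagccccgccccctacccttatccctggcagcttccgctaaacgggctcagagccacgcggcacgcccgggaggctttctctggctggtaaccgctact
SLC38A1: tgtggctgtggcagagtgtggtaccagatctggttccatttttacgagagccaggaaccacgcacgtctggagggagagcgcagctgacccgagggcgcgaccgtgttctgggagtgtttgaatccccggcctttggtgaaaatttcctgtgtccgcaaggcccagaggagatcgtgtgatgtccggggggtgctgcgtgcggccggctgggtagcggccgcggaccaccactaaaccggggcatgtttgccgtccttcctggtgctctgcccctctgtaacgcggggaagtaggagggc
Of these windows, 72.0% of the bases were G or C for SLC38A2, 66.7% for SLC1A5 and 62.3% for SLC38A1, against a median of 58.7% over 35116 RefSeq windows of that length. High values were not particular to them. The nearest windows of other members were at 82.0% for SLC7A1, 80.3% for SLC7A5 and 78.7% for SLC7A6. Those of SLC43A1, SLC6A9 and SLC1A4 were at 61.7%, 60.0% and 52.0%.

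A pair of motifs was searched on both strands. TGATGNAA is the core of the element that ATF4 dimers bind and occurred in 3.62% of all windows, and CACGTG is the E-box that MYC and MAX bind and occurred in 7.26%. SLC7A2 was left out of the search, and no searched window of a member held matches of both motifs. The windows printed above held neither motif. Sequence outside the windows, such as further into the genes, was not searched. Of the 14 windows of 9 members, short matches are given below as 30 bases with the match in capitals. They lie in the nearest window of SLC7A5 (chr16:87869619-87869648, minus strand) and SLC7A1 (chr13:29595663-29595692, minus strand), and in other RefSeq windows of SLC1A4 (chr2:64989381-64989410, plus strand), SLC1A5 (chr19:46784893-46784922, minus strand) and SLC38A1 (chr12:46266502-46266531, minus strand).
SLC7A5: gccggacgacgCACGTGctccgagctgggc
SLC7A1: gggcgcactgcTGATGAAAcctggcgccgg
SLC1A4: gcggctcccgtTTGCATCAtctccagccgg
SLC1A5: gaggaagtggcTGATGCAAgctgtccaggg
SLC38A1: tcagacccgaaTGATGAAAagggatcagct
Further CACGTG matches lay in another window of SLC1A5 and in the nearest window of SLC43A1. A match is a description of letters in a window, and binding was not measured in these libraries.

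The total counts per sample were 62684076, 64713764 and 63054445 in control replicates 1 to 3 and 68548419, 65861994 and 69057423 in knockdown replicates 1 to 3, so every knockdown sample was deeper than every control sample. Levels between samples are given as CPM, the counts relative to the library total, scaled by TMM, a factor that sets the bulk of genes equal between samples. Levels between genes are given as the deposited FPKM, which also divides by gene length. A gene was called changed at an adjusted p below 0.05 in the quasi-likelihood test of edgeR over 18390 genes, and fold changes are log2 of knockdown over control with their standard error (SE). The targeted gene checks the labels. ZNF706 was at 51.9, 55.1 and 54.7 CPM in the control samples and at 33.5, 30.8 and 32.8 CPM in the knockdown samples. The groups did not overlap, and the level fell by 0.73 on the log2 scale (SE 0.050, edgeR adjusted p = 3.7e-05), leaving a part of the transcript in the knockdown cells.

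The cell label was checked against marker genes. All 8 markers of hepatocytes and HCC epithelium were in the table, with summed levels of 2437, 2500 and 2623 CPM in control and 2382, 2467 and 2509 CPM in knockdown. The sum was carried by the keratin genes KRT8, the most abundant with 93159 to 112218 counts, and KRT18, at 923, 951 and 1015 CPM in control and 887, 909 and 899 CPM in knockdown. Of the 8 markers, 6 had a fold change below 0, with a median of -0.39, and 1 was called, the apolipoprotein gene APOB, which fell by 0.98 on the log2 scale (edgeR adjusted p = 0.021). The apolipoprotein gene APOA1 had 122, 150 and 217 counts in control and 0, 4 and 138 counts in knockdown and was not called (adjusted p = 0.25). The liver secretory genes were low, since ALB had 189, 899 and 882 counts in control and 587, 635 and 138 counts in knockdown, and AFP had 71, 230 and 252 against 189, 156 and 31 counts. Control replicate 1 and knockdown replicate 3 thus stood apart from the other samples in both genes, and COL1A2 was at 117 and 119 counts in these 2 samples and at 0 to 8 counts in the others. Where a named member, or a named gene of the lists below, lost its call without them, both values are given. No such values are given for the marker genes or for SLC7A11.

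Markers of other cell types were also present. The summed level of 5 fibroblast markers was 83.5, 79.7 and 82.6 CPM in control and 94.7, 96.1 and 95.2 CPM in knockdown, led by COL1A1 with 4505 to 5998 counts. COL1A1 and PDGFRB were called higher, while LUM was at 2.63, 0.771 and 1.21 CPM in control and at 0.884, 0.775 and 0.257 CPM in knockdown and was not called (edgeR adjusted p = 0.12). The 3 leukocyte markers in the table, of 5 listed, summed to 26.8, 26.4 and 27.8 CPM in control and 40.6, 44.5 and 40.8 CPM in knockdown. Nearly all of that was CD68, a lysosomal gene with 1643 to 2940 counts, while the defining leukocyte gene PTPRC had at most 8 counts in any sample. The 3 endothelial markers in the table, of 4 listed, summed to 13.6, 14.9 and 16.3 CPM in control and 11.2, 12.6 and 13.1 CPM in knockdown, led by CDH5 with 357 to 561 counts, which was called lower, while PECAM1 had a fold change of 0.15 and was not called. The fibroblast and leukocyte sums were thus higher in every knockdown sample than in every control sample, the endothelial sum was lower in every knockdown sample, and the part of these markers in the values below was not tested.

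The 10 transporters spanned a wide range of levels in control cells. SLC7A5 was the most abundant at 443 ± 16.4 FPKM (SD, n = 3), rank 47 among all genes of the table. SLC38A2 followed at 114 ± 5.95 FPKM, SLC38A1 at 75.3 ± 1.85 FPKM and SLC1A5 at 65.4 ± 2.08 FPKM. These 4 genes, the exchanger of large neutral amino acids and the carriers of glutamine and other small neutral amino acids, made up the upper part of the order. The arginine and lysine carrier SLC7A1 was at 20.1 ± 0.414 FPKM and SLC7A2, its relative, at 8.01 ± 0.544 FPKM, with SLC7A6 between them at 10.8 ± 0.233 FPKM. The glycine carrier SLC6A9 was at 4.56 ± 0.050 FPKM. SLC1A4 at 0.823 ± 0.040 FPKM and SLC43A1 at 0.157 ± 0.081 FPKM closed the order. No neighbours in it overlapped between control samples. In knockdown cells the order was kept, but the samples of SLC38A2 (73.6 ± 2.56 FPKM) and SLC38A1 (70.0 ± 3.09 FPKM) overlapped.

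**Figure D1:**
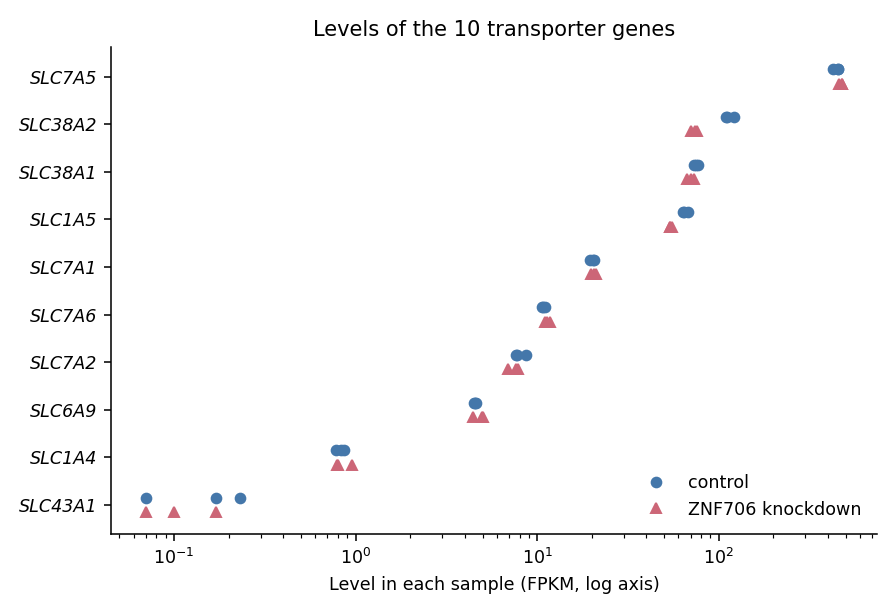
Deposited FPKM of the 10 transporters on a log axis, in order of their control level, with circles for control and triangles for ZNF706 knockdown samples. SLC7A5 lies highest at 443 FPKM in control and SLC43A1 lowest at 0.157 FPKM, and the knockdown points of SLC38A2 fall to the level of SLC38A1.

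On ZNF706 knockdown, transcripts of 3 carriers of small neutral amino acids, SLC38A2, SLC1A5 and SLC38A1, were lower, and no transporter of the 10 was called higher. SLC38A2 fell by 37.4% and SLC1A5 by 19.7%, and the mean of SLC38A1 fell from 874 to 786 CPM. All 10 members passed the filter on low counts, 3 were called lower and 7 were not called. Of all 18390 tested genes, 12.4% were called lower, 10.4% higher and 22.8% were called in either direction, so 3 calls among 10 genes lay near that background, and the count does not set the group apart. The members' median log2 fold change was -0.09, and that of all tested genes was 0.01.

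SLC38A2 (ENSG00000134294, GRCh38 chr12:46358188-46372773, minus strand) had the largest fall. It had 51154, 52864 and 56394 counts in control and 38727, 34568 and 38129 counts in knockdown, which came to 827, 832 and 919 CPM against 552, 515 and 545 CPM. Control replicate 3 was the highest, and every knockdown sample lay well below every control sample. The level fell by 0.68 on the log2 scale (SE 0.046, 95% interval -0.78 to -0.57, edgeR adjusted p = 3.6e-05). The call was made in all 17 alternative settings, over which the fold change was between -0.71 and -0.58. An antisense gene within the locus, AC025031.2, had at most 14 counts in a sample.

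SLC1A5 (ENSG00000105281, chr19:46774883-46788594, minus strand), the glutamine exchanger, was next. It was at 247, 247 and 264 CPM in control and at 202, 200.05 and 207 CPM in knockdown. The samples of a group lay close together and the groups did not overlap. The level fell by 0.32 on the log2 scale (SE 0.037, 95% interval -0.40 to -0.23, edgeR adjusted p = 0.00044), and the call was made in all 17 alternative settings, with fold changes between -0.39 and -0.26.

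SLC38A1 (ENSG00000111371, chr12:46183063-46269951, minus strand) lies on chromosome 12 next to SLC38A2, with 88237 bases between the genes. Its level was 888, 872 and 861 CPM in control and 819, 788 and 752 CPM in knockdown. The groups did not overlap, but the gap between the lowest control and the highest knockdown sample was smaller than the spread among knockdown samples. It fell by 0.15 on the log2 scale (SE 0.035, 95% interval -0.23 to -0.07, edgeR adjusted p = 0.012). The call was lost in 6 of 17 settings, among them without knockdown replicate 2 (-0.15, adjusted p = 0.056), without both control replicate 1 and knockdown replicate 3 (-0.11, adjusted p = 0.070) and with library size alone in place of TMM (-0.10, adjusted p = 0.090). Its direction was the same in all 17.

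**Figure D2:**
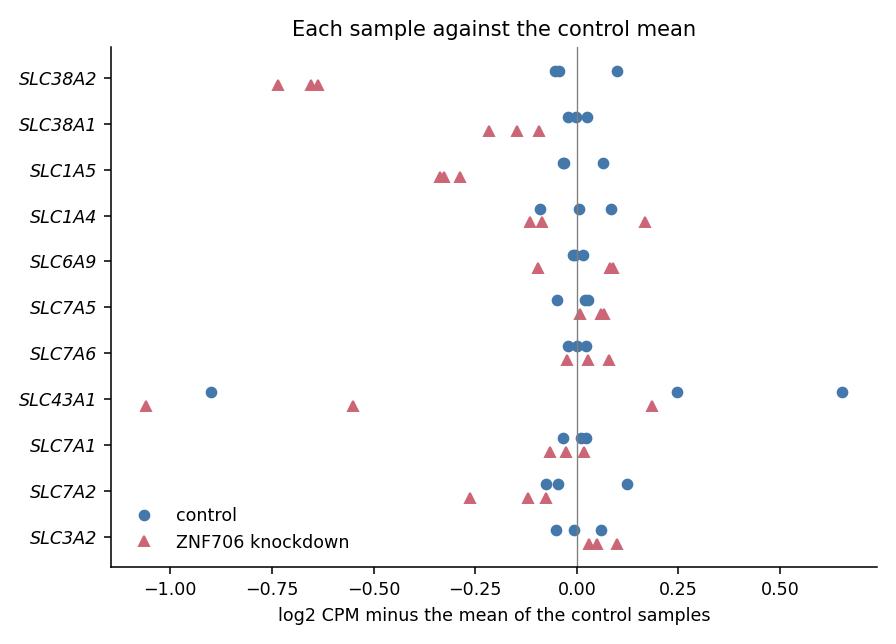
Each sample of the 10 transporter genes and SLC3A2 as log2 CPM minus the mean of the 3 control samples, with circles for control and triangles for ZNF706 knockdown. The knockdown points of SLC38A2, SLC1A5 and SLC38A1 lie below all of their control points, while the groups of the other 7 transporters and of SLC3A2 overlap.

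The remaining sodium-coupled carriers were not called. SLC1A4, the relative of SLC1A5, was at 6.25, 6.69 and 7.05 CPM in control and at 6.15, 7.48 and 6.27 CPM in knockdown, with a fold change of -0.01 (95% interval -0.28 to 0.26, edgeR adjusted p = 0.98). Its groups overlapped, and the interval is wide enough to hold a change of the size of SLC38A1. SLC6A9 was at 27.6, 28.1 and 27.7 CPM against 29.6, 26.0 and 29.4 CPM, a fold change of 0.03 (95% interval -0.12 to 0.18, adjusted p = 0.82). CCDC24, which overlaps SLC6A9 by 5029 bases on the opposite strand, had 120, 106 and 126 counts in control and 258, 262 and 242 counts in knockdown, against 1701 counts or more for SLC6A9, and the reads of the 2 genes cannot be fully told apart.

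The exchangers that pair with the heavy chain were not called. SLC7A5 (ENSG00000103257, chr16:87830023-87869507, minus strand) was at 2479.9, 2493 and 2362 CPM in control and at 2558, 2546 and 2456 CPM in knockdown. The groups overlapped, and the fold change was 0.04 (95% interval -0.02 to 0.11, edgeR adjusted p = 0.33). In deposited FPKM, which are not scaled by TMM, the control samples lay at 453, 451 and 424 and the knockdown samples at 479, 478 and 459, without overlap. With library size alone the fold change was 0.10 and just called (adjusted p = 0.0498). SLC7A5P1 and SLC7A5P2, copies of SLC7A5 that could share its reads, had at most 10 and 69 counts per sample, against 144990 or more for SLC7A5.

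SLC7A6 was at 96.7, 93.8 and 95.2 CPM in control and at 100.5, 93.6 and 97.0 CPM in knockdown, with a fold change of 0.03 (95% interval -0.06 to 0.11, edgeR adjusted p = 0.66). SLC7A6OS overlaps it by 17321 bases on the opposite strand and had 825 to 1364 counts, so that a part of the SLC7A6 counts is uncertain. The heavy chain gene SLC3A2, which was not one of the 10, was at 729, 763 and 708 CPM in control and at 749, 759 and 784 CPM in knockdown. Its groups overlapped in CPM, though not in FPKM (123, 128 and 117 against 129.6, 132 and 135), with a fold change of 0.06 (95% interval -0.02 to 0.14, edgeR adjusted p = 0.27), which was called only with library size alone (0.11, adjusted p = 0.043).

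The carriers of arginine and lysine were not called either. SLC7A1 was at 181, 175 and 182 CPM in control and at 182, 176 and 171 CPM in knockdown, with a fold change of -0.02 (95% interval -0.10 to 0.06, edgeR adjusted p = 0.68). SLC7A2 was at 69.6, 71.0 and 79.9 CPM in control and at 67.5, 69.6 and 61.1 CPM in knockdown. Its groups overlapped narrowly, since knockdown replicate 2 lay at the level of control replicate 1. The fold change was -0.15 (95% interval -0.30 to -0.01), of the size of SLC38A1 with a wider error, and it did not pass after adjustment (edgeR adjusted p = 0.11). It lay between -0.20 and -0.09 with 1 sample left out and was -0.09 once the trend with GC content was removed.

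SLC43A1 was near the limit of detection, with 19, 61 and 44 counts in control and 28, 46 and 19 counts in knockdown. The fold change of -0.55 had a 95% interval of -1.70 to 0.61 (edgeR adjusted p = 0.51), and a change of the size seen for SLC38A2 was not detectable at this depth. With 1 sample left out, the fold change of SLC43A1 lay between -0.97 and -0.18. For comparison, SLC7A11 had a fold change of -0.29 (edgeR adjusted p = 0.017).

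**Figure D3:**
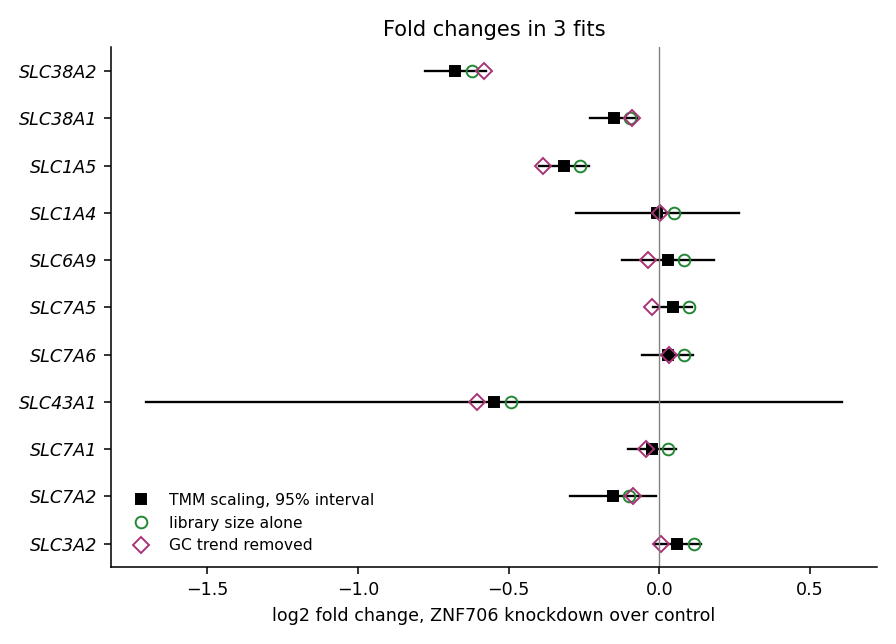
Log2 fold change of knockdown over control for the 10 transporters and SLC3A2 in 3 fits, as squares with 95% intervals for TMM scaling (n = 3 per group), circles for library size alone and diamonds for the GC trend removed. With TMM the intervals of SLC38A2, SLC1A5, SLC38A1 and SLC7A2 lie below 0, of which that of SLC7A2 did not pass after adjustment, and SLC43A1 has the widest interval.

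A second rule, an unadjusted p below 0.05 and a log2 fold change of at least 0.3 in size, was applied to the edgeR fit. Its limits follow the criteria of the study, which were set on DESeq2 results. It called SLC38A2 and SLC1A5 lower and no member higher, where 5.88% of all tested genes were called lower, 9.61% higher and 15.5% in either direction. The groups did not overlap for 3 members, each of them lower in knockdown, where 39.4% of all tested genes did not overlap, 19.7% were higher and 19.7% were lower without overlap.

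The mixture of transporter transcripts shifted with these falls. Summed over the 10 genes, the level was 749.7, 744 and 731 FPKM in control and 728, 718 and 699 FPKM in knockdown. SLC7A5 made up 60.4, 60.6 and 58.0% of the sum in control and 65.8, 66.6 and 65.6% in knockdown. The other 9 genes together came to 297, 293 and 307 FPKM in control and 249.01, 239.7 and 240.5 FPKM in knockdown, and the share of SLC38A2 went from 14.7, 14.8 and 16.5% to 10.4, 9.86 and 10.7%. FPKM sums follow the abundant genes, so these shares restate the levels of SLC7A5 and SLC38A2.

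Ratios within a library do not depend on how libraries are scaled to each other. Such ratios were formed for 5 pairs of related genes, chosen after the data were seen. The ratio of SLC38A2 to SLC38A1 in FPKM was 1.43, 1.47 and 1.64 in control and 1.04, 1.01 and 1.12 in knockdown. Every knockdown sample was below every control sample, and the log2 ratio changed by -0.52 (two-sided exact permutation p = 0.1, adjusted p = 0.25 over the 5 pairs), where 0.1 is the smallest p that 3 against 3 samples allow. The ratio of SLC1A5 to SLC1A4 changed by -0.31 on the log2 scale (exact permutation p = 0.1, adjusted p = 0.25). The ratio of SLC7A5 to its partner SLC3A2 was 3.68, 3.53 and 3.61 in control and 3.70, 3.63 and 3.39 in knockdown, a log2 change of -0.02 (exact permutation p = 0.9), and SLC7A6 to SLC7A5 changed by -0.02 as well (exact permutation p = 0.7). SLC7A2 to SLC7A1 changed by -0.13 (exact permutation p = 0.2, adjusted p = 0.33). No pair could pass a threshold of 0.05 in this design.

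**Figure D4:**
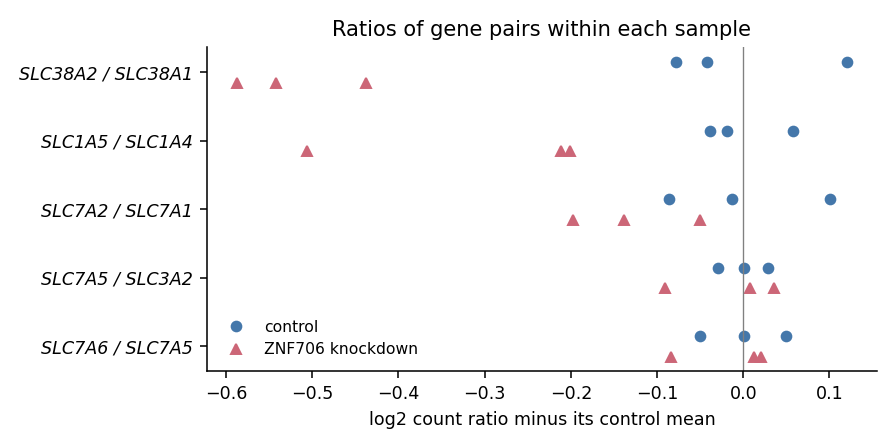
Log2 ratios of counts within each library for 5 pairs of related transporter genes, drawn per sample as the distance from the mean of the control samples. The knockdown samples lie apart from the control samples for SLC38A2 over SLC38A1 and for SLC1A5 over SLC1A4, and overlap them for SLC7A5 over SLC3A2.

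The genes whose pattern over the 6 samples was most like that of SLC38A2 were sought among 14116 genes with a mean of at least 50 counts. By the root mean square difference of log2 CPM from the control mean, they were CASP4, an inflammatory caspase gene (0.049, fold change -0.67), EPGN, an epidermal growth factor family ligand gene (0.049, fold change -0.66), and HECA (0.057, fold change -0.60). With 6 samples in 2 groups, this measure is set mostly by the size of the difference between the groups.

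Of 34 other listed plasma membrane carriers, counting the heavy chain gene SLC3A2, 29 were in the table and 16 were tested. Of these, 2 were called higher and 1 lower. That is 18.8% called, near the 22.8% of all tested genes, and the median log2 fold change of the 16 was 0.07. With library size alone more of them were called higher, a setting in which 14.9% of all tested genes were called higher. The glutamate transporter gene SLC1A3 was at 96.7, 97.9 and 99.9 CPM in control and at 79.9, 70.6 and 74.0 CPM in knockdown, without overlap, and fell by 0.39 on the log2 scale (SE 0.047, edgeR adjusted p = 0.00047). SLC1A7, another glutamate transporter gene of that family, was scarce, with 23, 12 and 25 counts in control and 83, 68 and 84 counts in knockdown, a rise of 1.81 (SE 0.37, adjusted p = 0.0068). SLC38A10, a relative of SLC38A2, rose by 0.19 (SE 0.043, adjusted p = 0.012), a call that was lost without control replicate 1 and knockdown replicate 3 together (0.15, adjusted p = 0.086) and once the trend with GC content was removed.

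Among 16 tested carriers of lysosomes and mitochondria, of 18 listed, 3 were called higher and 3 lower, with a median of 0.02 on the log2 scale. That is 37.5% called, against 22.8% of all tested genes (10.4% higher and 12.4% lower). With 1 sample left out, 2 to 4 were called higher and 1 to 3 lower, where 13.9 to 18.0% of all tested genes were called. Without control replicate 1 and knockdown replicate 3, 1 was called in each direction. In that setting 15.1% of all tested genes were called (6.38% higher and 8.75% lower). The mitochondrial carrier gene SLC25A29, for basic amino acids, was at 19.7, 20.2 and 20.5 CPM in control and at 26.5, 29.2 and 26.7 CPM in knockdown and rose by 0.45 (SE 0.069, edgeR adjusted p = 0.0016). SFXN2, a sideroflexin gene of mitochondria, rose by 0.52 (SE 0.12, adjusted p = 0.010), but was at 0.36 and not called without control replicate 1 and knockdown replicate 3 together (adjusted p = 0.084). SFXN1, a mitochondrial serine carrier gene, fell by 0.22 on the log2 scale (adjusted p = 0.0035) and was named after its value was seen. SFXN3 rose by 0.24 (adjusted p = 0.013), a call lost without control replicate 1, control replicate 3 or knockdown replicate 2, with adjusted p of up to 0.065, and without control replicate 1 and knockdown replicate 3 together (0.22, adjusted p = 0.088). SLC38A9, the lysosomal arginine sensor, fell by 0.28 (adjusted p = 0.041) and was called in 6 of 17 alternative settings, with adjusted p of up to 0.15 when 1 sample was left out and of 0.19 (fold change -0.23) without control replicate 1 and knockdown replicate 3 together.

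The amino acid response genes, which ATF4 and its upstream kinase GCN2 govern, had the largest share called of the lists described here in the fit of all 6 samples. All 19 were tested, 8 were called lower and 2 higher, which is 52.6% against 22.8% of all tested genes, and the median log2 fold change was -0.20 against 0.01. ASNS, asparagine synthetase, was at 50.3, 52.5 and 51.1 CPM in control and at 29.9, 26.6 and 29.3 CPM in knockdown. The groups lay far apart, and it fell by 0.84 on the log2 scale (SE 0.056, edgeR adjusted p = 3.2e-05). PPP1R15A, which reverses the phosphorylation of eIF2alpha, was at 33.7, 32.2 and 31.9 CPM against 22.4, 18.9 and 19.5 CPM and fell by 0.69 (SE 0.077, adjusted p = 0.00034). The transcript of ATF4 itself was at 301, 319 and 307 CPM in control and at 238, 253 and 261 CPM in knockdown, and fell by 0.30 (SE 0.041, adjusted p = 0.00089).

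Not all genes of that list were called lower. DDIT4, an inhibitor of mTORC1 signalling, was at 534, 580 and 534 CPM in control and at 730, 802 and 829 CPM in knockdown and rose by 0.52 (SE 0.051, edgeR adjusted p = 0.00017). TRIB3, an ATF4 target gene, was at 72.9, 74.0 and 76.7 CPM in control and at 71.0, 70.9 and 70.4 CPM in knockdown and was not called (adjusted p = 0.16), and ATF3 was not called either (fold change 0.11, adjusted p = 0.40). CHAC1, a glutathione-degrading enzyme gene, fell by 0.70 (SE 0.20, adjusted p = 0.032), but the call was lost without control replicate 3 or any 1 knockdown sample, with adjusted p of up to 0.12, and without control replicate 1 and knockdown replicate 3 together (-0.78, adjusted p = 0.084). Of the 8 genes called lower, ATF4, ASNS, PPP1R15A and STC2 were called with any 1 sample left out, and of the 2 called higher, DDIT4 was. In those fits 4 to 7 genes of the list were called lower, where 7.85 to 10.2% of all tested genes were. ATF4, STC2, TRIB3 and ATF3 were named after their values were seen.

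The genes that sense amino acids upstream of mTORC1, such as the Rag GTPases and their regulators, were split. Of 35 listed, 34 were tested, 5 were called higher and 6 lower, with a median of -0.03. That is 32.4% called, against 22.8% of all tested genes, and with 1 sample left out 3 to 5 were called higher and 2 to 4 lower, where 13.9 to 18.0% of all tested genes were called. WDR59, a subunit of GATOR2, was at 16.8, 17.7 and 17.1 CPM in control and at 24.9, 24.2 and 22.5 CPM in knockdown and rose by 0.47 (SE 0.073, edgeR adjusted p = 0.0016). C12orf66, a subunit of KICSTOR, rose by 0.60 (SE 0.097, adjusted p = 0.0021). BMT2, the methionine-related sensor SAMTOR, was at 8.60, 8.09 and 8.50 CPM in control and at 6.0, 3.82 and 4.83 CPM in knockdown and fell by 0.78 (SE 0.16, adjusted p = 0.0066), a call that was lost without control replicate 1 and knockdown replicate 3 together (-0.76, adjusted p = 0.056). LAMTOR4, of the Ragulator complex, rose by 0.34 (adjusted p = 0.019), a call lost without control replicate 1 or 2 or knockdown replicate 2 or 3, with adjusted p of up to 0.066, and without control replicate 1 and knockdown replicate 3 together (0.25, adjusted p = 0.14). With library size alone, 9 genes of this list were called higher and 2 lower, a setting in which the calls among all tested genes moved the same way, to 14.9% higher and 8.25% lower.

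Of 28 listed enzymes that act on the carried amino acids, 24 were tested, 6 were called lower and 1 higher, with a median of 0.02. That is 29.2% called, near the 22.8% of all tested genes, and with 1 sample left out 3 to 5 were called lower, where 7.85 to 10.2% of all tested genes were. ASS1, argininosuccinate synthase, was at 524, 567 and 545 CPM in control and at 419.7, 445 and 484 CPM in knockdown, without overlap, and fell by 0.28 on the log2 scale (SE 0.052, edgeR adjusted p = 0.0041), and ODC1, which turns ornithine into putrescine, fell by 0.21 (SE 0.034, adjusted p = 0.0024). GOT2, the mitochondrial aspartate aminotransferase and the 1 gene called higher, rose by 0.15 (adjusted p = 0.0095). With library size alone, 5 enzymes were called higher and 4 lower, where 14.9% of all tested genes were called higher and 8.25% lower.

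**Figure D5:**
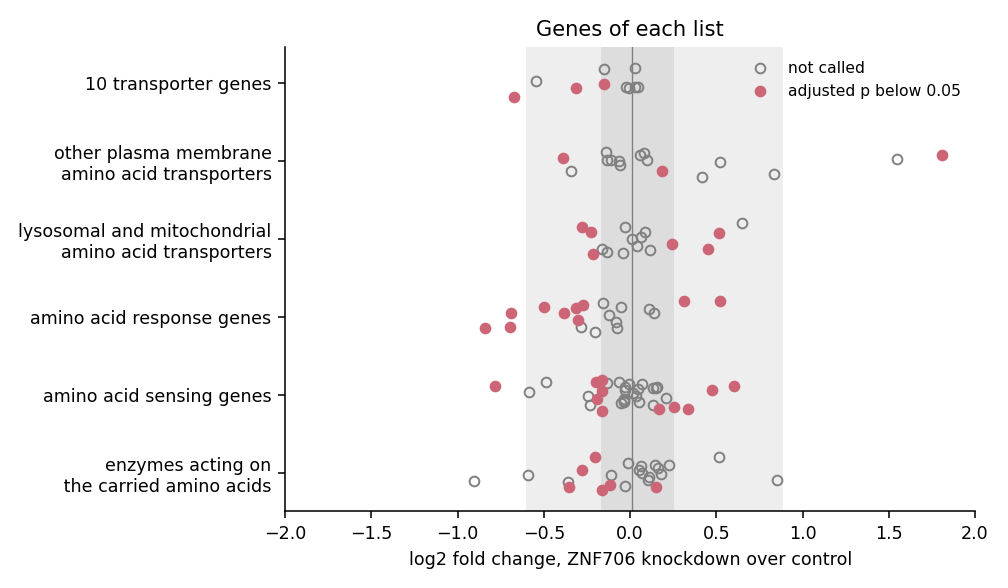
Log2 fold changes of the tested genes in each list, 1 point per gene, filled at an adjusted p below 0.05 and open where not called, with shaded bands for the middle 50% and 90% of all tested genes and a line at their median. The filled points of the amino acid response genes lie mostly below 0 (8 of 10), and 1 tested gene lies outside the axis.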

How the data were processed

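RNA was sequenced on an Illumina NovaSeq instrument. Per the study's methods and the labels, the authors mapped reads to GRCh38 with HISAT2, and cutadapt 1.9 and FastQC are named in the submitters' processing notes. The deposited table holds raw counts per gene and FPKM values, which the authors divided by gene length and library size. The counting program, its strand setting and the annotation release are not given in the sources used here. The table has a column of each unit for every sample.

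The quasi-likelihood test of edgeR 4.0.16 (R 4.3.3; glmQLFit, then glmQLFTest) was run on the counts after filterByExpr and TMM scaling, with the group as the only term and Benjamini-Hochberg adjustment over 18390 genes. Alternatives used DESeq2 1.42.0, limma 3.58.1 on log2(FPKM + 0.1) and log2(FPKM + 1), other scalings and filters, the replicate number as a block, and each sample left out. Settings with the GC or length trend removed, and without control replicate 1 and knockdown replicate 3, were added after seeing the data. The edgeR step was tested on simulated counts. GC content, length and overlapping genes were taken from GENCODE 29, which shares 32092 gene identifiers with the table. Promoter windows were taken from RefSeq for 9 of the 10 members. SLC7A2, on chromosome 8, was left out of the promoter search by choice.

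The genes named were ZNF706, the members and SLC3A2 and, from each other list, up to 4 called genes with the largest fold change and no overlap between groups. Some genes that this rule takes are not reported here. The members and lists were chosen with earlier results of these data known, so a list's direction is not independent evidence. Depth limits precision for counting error only.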

Additional observations from a re-analysis of the deposited data

How the results depend on the processing

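Over the alternatives for the members and SLC3A2, 159 values kept their direction and side of the threshold, 15 reversed, 6 lost and 2 gained a call. SLC38A2, SLC1A5 and ZNF706 were called in every one of 17 settings. SLC38A1 lost its call with library size alone, without knockdown replicate 2, without control replicate 1 and knockdown replicate 3, with log2(FPKM + 0.1) (adjusted p = 0.080), with log2(FPKM + 1) (adjusted p = 0.080) and with the GC trend removed (adjusted p = 0.071). The reversals were all of uncalled fold changes near 0. They were SLC7A5 at -0.026 and SLC6A9 at -0.038 with the GC trend removed, SLC7A1 at 0.029 with library size alone, 0.024 with log2(FPKM + 0.1), 0.023 with log2(FPKM + 1), 0.027 with the length trend removed and 0.0015 without control replicate 1 and knockdown replicate 3, SLC1A4 at 0.048 with library size alone, 0.0011 with the GC trend and 0.022 with the length trend removed, and SLC6A9 at -0.0049 without control replicate 1 and knockdown replicate 3. With 1 sample left out, SLC7A1 lay between -0.045 and -0.0036, SLC1A4 between -0.10 and 0.046 and SLC6A9 between -0.0037 and 0.088. Their cause was not tested.

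With library size alone, 1 member was called higher, against 0, and among all genes 2742 were called higher and 1518 lower, against 1906 and 2286 with TMM. The median fold change of all genes moved by less than 0.1. Without the filter on low counts 1253 genes were called higher, without control replicate 1 and knockdown replicate 3 there were 1189 (and 1631 lower, 15.1% of the genes tested then), and by the study's criteria on the edgeR fit 1081 were lower. With 1 sample left out, 2648 to 3424 genes were called, 1148 to 1485 higher and 1500 to 1939 lower, against 4192 in all, and 2 to 3 members. The lowest of these counts came without knockdown replicate 2. Response genes called lower were 4 to 7 with 1 sample left out, against 8, sensing genes called lower were 2 to 4, against 6, enzymes called lower 3 to 5, against 6, sensing genes called higher 3 to 5, against 5, response genes called higher 1 to 2, against 2, and carriers of lysosomes and mitochondria called lower 1 to 3, against 3. With library size alone, other plasma membrane carriers called higher were 4, against 2, sensing genes 9 higher and 2 lower, against 5 and 6, and enzymes 5 higher, against 1. With DESeq2, 2 other plasma membrane carriers were called lower, against 1, where 2342 of 31319 genes (7.48%) were called lower. Without control replicate 1 and knockdown replicate 3, carriers of lysosomes and mitochondria called were 1 higher and 1 lower, against 3 and 3, sensing genes called lower 3, against 6, and response genes called higher 1, against 2. Of the 6 sensing genes called lower with all samples, only RRAGA kept its call in that setting.

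Same-numbered samples did not deviate together (correlations 0.027, -0.028 and 0.029). No pairing by number was seen in these values, which cannot show how the samples were collected. With the replicate block, 3 members and 4361 genes in all (1967 higher, 2394 lower) were called, with 2 other plasma membrane carriers lower, against 1, and 1 response gene higher, against 2. The few counts of SLC43A1 and SLC1A4 limit what could be seen for these genes.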
